A study of Homo sapiens with 12 samples.

Results

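The genes described here encode histone-modifying and chromatin remodeling enzymes. They were chosen by symbol: histone deacetylases (HDAC and SIRT), lysine demethylases (KDM), methyltransferases (KMT2 and SETD), acetyltransferases (KAT), bromodomain proteins (BRD), SWI/SNF and ISWI subunits (SMARC), chromodomain helicases (CHD) and ARID proteins. Of the entries with such a symbol, 94 reached 10 counts in 3 or more samples and 23 did not, and 17092 genes reached that limit in all. The 94 hold 93 protein-coding genes, which are the members counted below, and SETD5-AS1, a non-coding antisense gene. The 23 entries below it were second identifiers of a member (14), SMARCE1 pseudogenes (5), the antisense gene SMARCA5-AS1 and 3 entries of KDM4E and KDM5D. Roles were assigned by family symbol alone, whatever the known substrate: KMT2, KAT and SETD as writers, HDAC, SIRT and KDM as erasers, BRD as readers, and SMARC, CHD and ARID as remodelers. This gave 22 writers, 34 erasers, 7 readers and 30 remodelers.

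Histone tails carry acetyl and methyl groups that are placed by writers, removed by erasers and bound by readers. Acetylation by KAT enzymes loosens nucleosome packing and is reversed by zinc-dependent HDACs and NAD-dependent sirtuins. Most KDM enzymes are Jumonji dioxygenases that need oxygen, iron and 2-oxoglutarate. Remodelers of the SWI/SNF, ISWI and CHD classes use ATP to slide or evict nucleosomes. Subunits of SWI/SNF are among the chromatin genes most often mutated in hepatocellular carcinoma, ARID1A and ARID2 above all.

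RNA was sequenced from 12 samples of Huh7, a human hepatocellular carcinoma cell line, in 4 groups of 3. Untreated cells received medium only. The other groups were treated for 6 h. One received graphene oxide (GO) at 400 µg/mL, another received GO esterified with ginsenoside Rg3 (GO–Rg3) at that same dose, and the last received the GO–Rg3 conjugate carrying the anthracycline doxorubicin (GO–Rg3–DOX) at 100 µg/mL. Cells given free doxorubicin were not analysed here, so the drug and its carrier cannot be told apart. The loaded conjugate was given at another dose than GO and GO–Rg3, and all 3 treated groups were compared with the same untreated samples, so their values are set side by side. Nothing in the labels says that replicates came from separate cultures, so the p-values measure the spread between these samples, which may be technical.

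Count totals ran from 27802871 to 38877420 per sample, and levels are CPM, counts relative to a library size scaled by TMM (trimmed mean of M-values). Mitochondrially encoded genes took 5.31 to 6.28% of the counts in untreated samples, 12.1 to 24.1% after GO, 6.89 to 7.42% after GO–Rg3 and 12.8 to 19.4% after GO–Rg3–DOX, with the highest share in replicate 1 of both the GO and the GO–Rg3–DOX groups. The 8 hepatocyte markers checked, ALB and AFP among them, were expressed in every sample, from 158 CPM upwards. Their summed level was 21383 to 21581 CPM in untreated samples, 13239 to 16210 after GO, 16439 to 19905 after GO–Rg3 and 27798 to 32906 after GO–Rg3–DOX, so each treated group lay apart from the untreated one. The single markers did not move together. After GO, AFP was at 4798 to 7034 CPM beside 12159 to 12431 untreated, and ALB and FGB were also lower. HNF4A instead was at 545 to 574 beside 352 to 378 CPM, and SERPINA1 was also higher. After GO–Rg3–DOX, HNF4A was lower, at 158 to 209 CPM, and AFP, at 10877 to 16533, overlapped its untreated range. The other markers lay above theirs. Of 7 markers of blood, endothelial and stromal cells, PECAM1 was at 0 and 5 others had at most 22 counts in any sample, while PDGFRB ran from 1.70 to 8.56 CPM. Their summed level was 2.35 to 3.61 CPM in untreated samples, 2.35 to 2.57 after GO, 2.28 to 3.48 after GO–Rg3 and 7.18 to 10.005 after GO–Rg3–DOX, and the part of either sum in the results was not tested.

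Per kb of the canonical transcript, HDAC1 was the most abundant member in untreated cells, at 129.9 ± 1.71 CPM per kb (SD, n = 3). This class I deacetylase was followed by the CpG-island-binding demethylase KDM2A (90.7 ± 2.16), the ISWI ATPase SMARCA1 (69.3 ± 2.36) and KDM2B (59.0 ± 2.92). The next were SMARCD1 (58.3 ± 0.384), KDM1A (58.2 ± 0.990), the NuRD helicase CHD4 (52.5 ± 1.01) and the SWI/SNF core subunit SMARCC1 (51.1 ± 1.73). The means of KDM2B, SMARCD1 and KDM1A differed by less than the SD of KDM2B, so their order is not resolved, and the same holds for CHD4 and SMARCC1. At the other end, CHD5 stood at 0.0183 ± 0.00767 CPM per kb, KDM4D at 0.308 ± 0.0924 and SMARCA2 at 0.522 ± 0.0344. The 2 alternative ATPases of SWI/SNF were thus present in very unequal amounts, with SMARCA4 at 32.02 ± 1.60 CPM per kb in the same cells. KMT2B was counted under 2 identifiers with 363 and 2 counts over all samples, and its level is uncertain.

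The promoters of 6 members are shown, chosen for the size or direction of their changes. A link between promoter sequence and change was not tested. HDAC11, KDM4B, ARID5A and HDAC10 were the 4 members that more than doubled after GO, and CHD1 and CHD3 are members of one helicase family that moved in opposite directions after GO–Rg3–DOX. Each window runs from 250 bases before to 50 after the gene start, on the strand of the gene, in RefSeq on GRCh38.p14. Capitals mark ACGTG, one form of the core of the hypoxia response element, and CCAAT, the box bound by NF-Y, on either strand. Other forms of that core were not searched for and are not marked.
HDAC11 promoter, chr3:13480056-13480355, plus strand: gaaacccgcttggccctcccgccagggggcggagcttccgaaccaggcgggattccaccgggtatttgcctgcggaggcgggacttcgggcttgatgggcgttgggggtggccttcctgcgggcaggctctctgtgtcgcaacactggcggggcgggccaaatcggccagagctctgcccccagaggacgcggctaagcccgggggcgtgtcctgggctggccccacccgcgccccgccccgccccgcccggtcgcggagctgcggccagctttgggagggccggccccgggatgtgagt
KDM4B promoter, chr19:4968863-4969162, plus strand: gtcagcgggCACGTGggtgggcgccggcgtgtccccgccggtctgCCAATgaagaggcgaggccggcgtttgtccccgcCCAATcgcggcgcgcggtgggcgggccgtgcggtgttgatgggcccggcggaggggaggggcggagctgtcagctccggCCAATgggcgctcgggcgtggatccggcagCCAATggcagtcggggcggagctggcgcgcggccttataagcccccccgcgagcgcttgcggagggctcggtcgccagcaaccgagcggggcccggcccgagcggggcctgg
ARID5A promoter, chr2:96536502-96536801, plus strand: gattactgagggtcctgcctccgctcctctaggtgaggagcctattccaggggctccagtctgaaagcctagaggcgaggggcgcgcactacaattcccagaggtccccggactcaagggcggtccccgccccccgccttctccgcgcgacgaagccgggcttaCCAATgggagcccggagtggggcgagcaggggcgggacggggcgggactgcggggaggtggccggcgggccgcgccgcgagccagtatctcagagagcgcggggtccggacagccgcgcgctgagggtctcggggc
HDAC10 promoter, chr22:50251216-50251515, minus strand: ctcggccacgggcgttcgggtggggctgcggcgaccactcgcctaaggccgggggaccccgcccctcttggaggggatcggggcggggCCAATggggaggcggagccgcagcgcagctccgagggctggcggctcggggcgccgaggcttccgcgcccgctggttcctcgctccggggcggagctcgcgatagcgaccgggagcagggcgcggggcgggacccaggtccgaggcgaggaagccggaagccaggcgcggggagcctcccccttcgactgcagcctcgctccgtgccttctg
CHD1 promoter, chr5:98928958-98929257, minus strand: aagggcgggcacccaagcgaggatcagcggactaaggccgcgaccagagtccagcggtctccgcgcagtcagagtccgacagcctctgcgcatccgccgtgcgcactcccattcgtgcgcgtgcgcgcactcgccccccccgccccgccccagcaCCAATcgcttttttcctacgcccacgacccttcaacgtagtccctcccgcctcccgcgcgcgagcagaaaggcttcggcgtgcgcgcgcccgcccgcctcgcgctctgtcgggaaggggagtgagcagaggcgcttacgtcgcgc
CHD3 promoter, chr17:7888539-7888838, plus strand: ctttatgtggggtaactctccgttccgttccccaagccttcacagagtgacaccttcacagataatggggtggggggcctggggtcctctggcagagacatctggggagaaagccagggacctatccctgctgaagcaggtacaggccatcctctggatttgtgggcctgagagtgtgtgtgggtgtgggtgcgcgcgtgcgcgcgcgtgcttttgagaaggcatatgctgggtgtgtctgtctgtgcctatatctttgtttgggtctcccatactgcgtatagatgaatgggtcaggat
The first 5 windows are rich in G and C, from 70.7% to 77.0%, with 30 to 44 CpG pairs each, while the CHD3 window has 56.0% and 10 CpG pairs. KDM4B holds 4 CCAAT boxes and a palindromic CACGTG, which reads as ACGTG on both strands. ARID5A, HDAC10 and CHD1 hold 1 CCAAT box each, and neither motif occurs in the windows of HDAC11 and CHD3. A window was found for 80 of the 93 members. ACGTG was in 21.3% of them and in 21.4% of all 35116 promoters of the table. CCAAT was in 24 of the 80 against 34.6%, TATAAA in 1.25% (ARID5B alone) against 11.5%, and the full cyclic AMP response element TGACGTCA in 1.25% (SIRT4 alone) against 1.85%. The median G and C content was 67.0% for the members and 58.7% for all promoters.

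After GO, 22 members rose and 7 fell at an adjusted p below 0.01 (edgeR quasi-likelihood F-test, adjusted over 17092 genes by the Benjamini-Hochberg method), beside 12.1% of all genes higher and 15.4% lower. The members' shares were 23.7% and 7.53%. Scaled by library totals alone, 11 of 93 members rose, all of them among the 22, and 9 fell, beside 1223 and 2782 of all 17092 genes. The median of all genes then moved from 0.0084 to -0.11 on the log2 scale. An absolute log2 fold change of 1 was also passed upwards by 4 of 93 members (4.30%, beside 3.84% of all genes). None passed it downwards (0 by edgeR, 0 at an unadjusted p below 0.05 and 0 by DESeq2, beside 2.62% of all genes). The median log2 fold change was 0.16 for the members and 0.0084 for all genes. CPM did not overlap between the groups for 72 of 93 members (77.4%), beside 58.5% of all genes.

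The 4 members past a doubling, a share near that of all genes, held 3 erasers by symbol, HDAC11, KDM4B and HDAC10. HDAC11, the sole class IV deacetylase, which removes fatty acyl groups from proteins, measured 5.39, 5.27 and 5.60 CPM in the untreated samples and 18.9, 16.4 and 17.4 CPM after GO. All GO samples lay far above the untreated ones (3.24-fold), a log2 fold change of 1.69 (SE 0.16, adjusted p = 2.46e-06), while GO–Rg3 samples were at 6.75, 4.53 and 5.30 CPM, around the untreated range. KDM4B, a Jumonji demethylase of H3K9 known to be induced by hypoxia, went from 28.6, 23.5 and 25.4 CPM to 78.3, 72.0 and 71.6 CPM, a log2 fold change of 1.52 (SE 0.17, adjusted p = 1.32e-05). ARID5A, an ARID protein that also binds and stabilizes inflammatory mRNAs, measured 5.95, 4.63 and 5.81 CPM without treatment and 14.0, 11.0 and 13.0 CPM after GO, a log2 fold change of 1.203 (SE 0.19, adjusted p = 0.000205). HDAC10, a polyamine deacetylase of class IIb, was at 3.44, 2.91 and 3.46 CPM in untreated cells and at 7.75, 5.85 and 7.04 CPM after GO, a log2 fold change of 1.06 (SE 0.14, adjusted p = 5.09e-05). In none of the 4 did the untreated and GO samples overlap, as the plot of levels by sample shows.

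**Figure D1:**
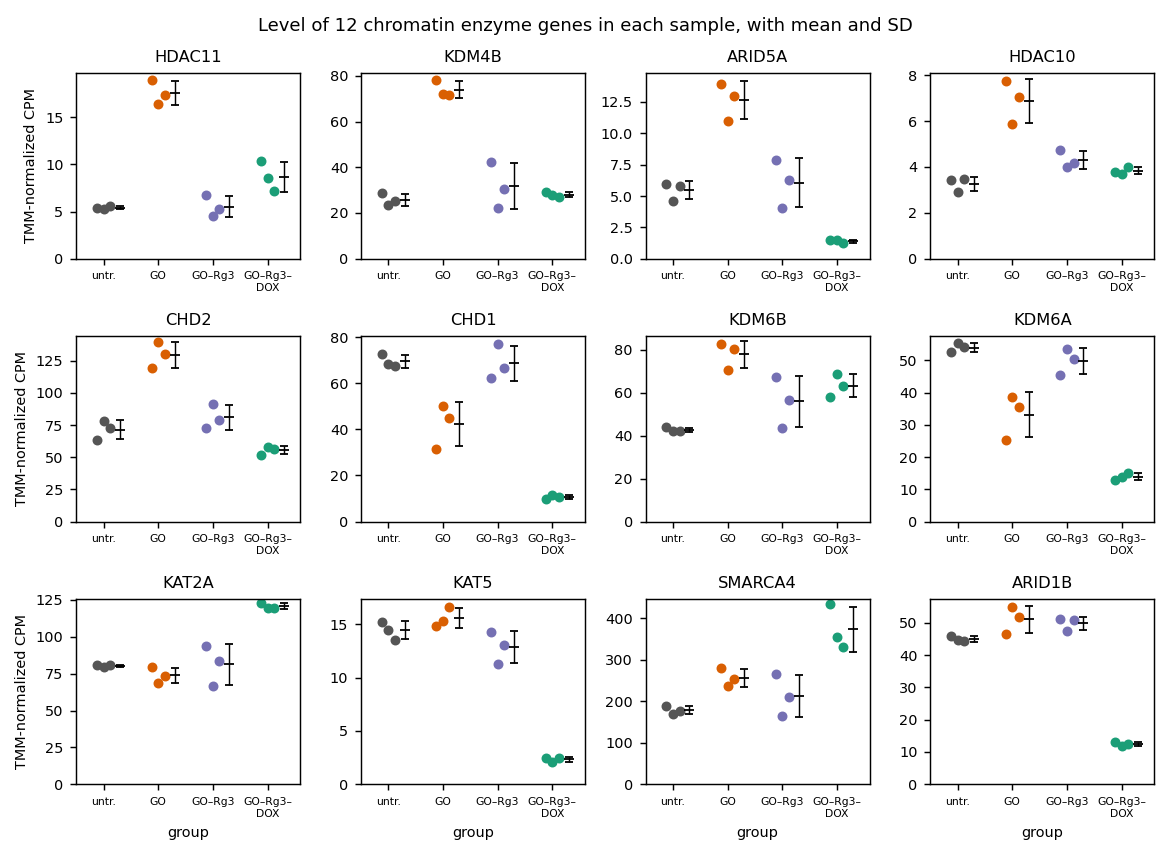
TMM-normalized CPM (y axis, from 0) of 12 members in each sample of the 4 groups (x axis), with the mean and SD (n = 3) beside the points. HDAC11, KDM4B, ARID5A and HDAC10 stood apart after GO, with the 3 GO samples above all untreated ones, and CHD1, KDM6A, KAT5 and ARID1B were lowest after GO–Rg3–DOX.

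Of 16 KDM demethylase genes, 6 rose and 1 fell after GO (37.5% and 6.25%, beside 12.1% and 15.4% of all genes). Besides KDM4B these were KDM6B, which demethylates H3K27, with a log2 fold change of 0.86 (SE 0.13, adjusted p = 0.000152), the H3K9 demethylase KDM3A (0.70), the H3K4 demethylase KDM5B (0.64), KDM2A (0.53) and KDM4A (0.44), of which KDM4A did not pass by library totals alone (0.32). KDM6A (GRCh37 chromosome X from 44732434 to 44972024), the X-linked paralog of KDM6B, was the member that fell. It was at 52.6, 55.4 and 54.0 CPM in untreated samples and at 25.3, 38.7 and 35.6 CPM after GO, a log2 fold change of -0.70 (SE 0.13, adjusted p = 0.000793). The ratio of KDM6A to KDM6B per kb, on the log2 scale, went from 0.48 ± 0.072 (SD, n = 3) to -1.11 ± 0.427, without overlap. KDM5A and KDM5C, with log2 fold changes of 0.23 and 0.13, did not pass the test. The sign for KDM5C turned with an offset for GC content (-0.11).

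Among deacetylases, HDAC5, a class IIa enzyme, rose (log2 fold change 0.65, SE 0.16, adjusted p = 0.00414), but not by library totals alone (0.52, adjusted p = 0.0198). HDAC2 fell from 180.4, 175.7 and 174.0 CPM to 111.1, 127.5 and 121.8 CPM, a log2 fold change of -0.56 (SE 0.10, adjusted p = 0.000584). Its close paralog HDAC1, with -0.16, and HDAC3, with -0.16, did not pass. Of 7 sirtuins, SIRT3, the main mitochondrial deacetylase, rose (0.44, SE 0.10, adjusted p = 0.0036), but not by library totals alone (0.31, adjusted p = 0.0769). The nuclear sirtuins SIRT1 (-0.38), SIRT6 (0.44) and SIRT7 (0.26) did not pass.

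Remodelers moved both ways. CHD2 rose from 63.6, 78.3 and 72.6 CPM to 119.2, 139.5 and 130.1 CPM, a log2 fold change of 0.86 (SE 0.11, adjusted p = 4.1e-05). CHD1, which binds methylated H3K4 and travels with elongating RNA polymerase, measured 72.7, 68.2 and 67.4 CPM before and 31.7, 49.96 and 45.1 CPM after GO, a log2 fold change of -0.72 (SE 0.14, adjusted p = 0.00105). These paralogs were about equal per kb in untreated cells, with a log2 ratio of CHD1 to CHD2 of 0.16 ± 0.205, and after GO the ratio was -1.44 ± 0.236. CHD3 (0.44) and CHD6 (0.45) also rose, as did ARID1A (0.47), ARID5B (0.49), SMARCC1 (0.32) and SMARCD2 (0.33), and by library totals alone none of these 6 passed (0.20 to 0.36). SMARCA5, the ATPase of the ISWI complexes, fell (-0.51, SE 0.14, adjusted p = 0.00872, and -0.61 with 0.014 by library totals alone), with 1 low GO sample at 82.4 CPM beside 132.4 and 123.3. SMARCA4 at 0.52 (adjusted p = 0.0109) and SMARCA2 at 0.43 (adjusted p = 0.0333) did not pass.

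Of 22 writers, 3 rose and 2 fell after GO (13.6% and 9.09%, beside 12.1% and 15.4% of all genes). SETD1B, a catalytic subunit of H3K4 methyltransferase complexes, rose from 19.9, 22.0 and 24.2 CPM to 39.1, 35.7 and 37.2 CPM, a log2 fold change of 0.76 (SE 0.12, adjusted p = 0.000152). KMT2D, which methylates H3K4 at enhancers, rose by 0.71 (SE 0.16, adjusted p = 0.00218) and KMT2E by 0.38 (SE 0.10, adjusted p = 0.00542). KMT2D (0.59, adjusted p = 0.018) and KMT2E (0.27, adjusted p = 0.134) did not pass by library totals alone, and SETD1B did (0.63, adjusted p = 0.00387). SETD3, an actin histidine methyltransferase, fell (-0.63, SE 0.10, adjusted p = 0.000179), and so did SETD9 (-0.74, SE 0.19, adjusted p = 0.00589), at 1.84 to 2.62 CPM after GO. Of 7 KAT genes, 0 passed in either direction, also by DESeq2, and 0 were higher and 1 lower at an unadjusted p below 0.05. The sign of the small values for KAT2B (-0.14) and KAT6A (-0.02) turned under several settings. Among readers BRD7, a bromodomain subunit of a SWI/SNF complex, fell (-0.34, SE 0.09, adjusted p = 0.00829).

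Fold changes after GO went with the base composition of the transcripts. Across 92 members with a value, the log2 fold change had a Pearson correlation of 0.54 and a Spearman correlation of 0.51 with G and C content, beside 0.39 and 0.45 across 16310 genes. Genes share the same libraries and are not independent replicates. The canonical transcripts of HDAC11, KDM4B, ARID5A and HDAC10 have 60.2%, 61.4%, 64.1% and 66.3% G and C, against 38.3% for CHD1 and a median of 49.99% over the members. With an offset for GC content, HDAC11 and KDM4B stayed past a doubling (log2 fold changes 1.39 and 1.18), while ARID5A (0.79, adjusted p = 1.62e-05) and HDAC10 (0.60, adjusted p = 0.00254) passed the test without the doubling. CHD1 was at -0.40 under that offset. Without GO replicate 1, the sample with the highest mitochondrial share, 21 members rose and 6 fell, HDAC10 was at 0.97 and CHD1 at -0.55. The number of rises was lowest, 13, without untreated replicate 1.

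GO–Rg3–DOX changed more members. Relative to untreated cells, 20 rose and 43 fell (21.5% and 46.2%), beside 25.5% and 30.5% of all genes. Of these, 4 rose and 22 fell past an absolute log2 fold change of 1 (4.30% and 23.7%, beside 12.6% and 18.2% of all genes). CHD5, near the floor of counts, is among the 4. The median log2 fold change was -0.20 for the members and -0.056 for all genes, and CPM did not overlap for 76 of 93 members (81.7%), beside 75.3% of all genes. Scaling mattered here. By library totals alone the median of all genes moved from -0.056 to -0.47. Of 93 members 4 then rose and 53 fell, beside 2149 and 7297 of all 17092 genes, so the rises below are relative to the TMM scale. Without GO–Rg3–DOX replicate 1, which had the highest mitochondrial share of its group, 18 rose and 37 fell. In such bulk samples, fewer cells of a type and less RNA per cell cannot be told apart.

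**Figure D2:**
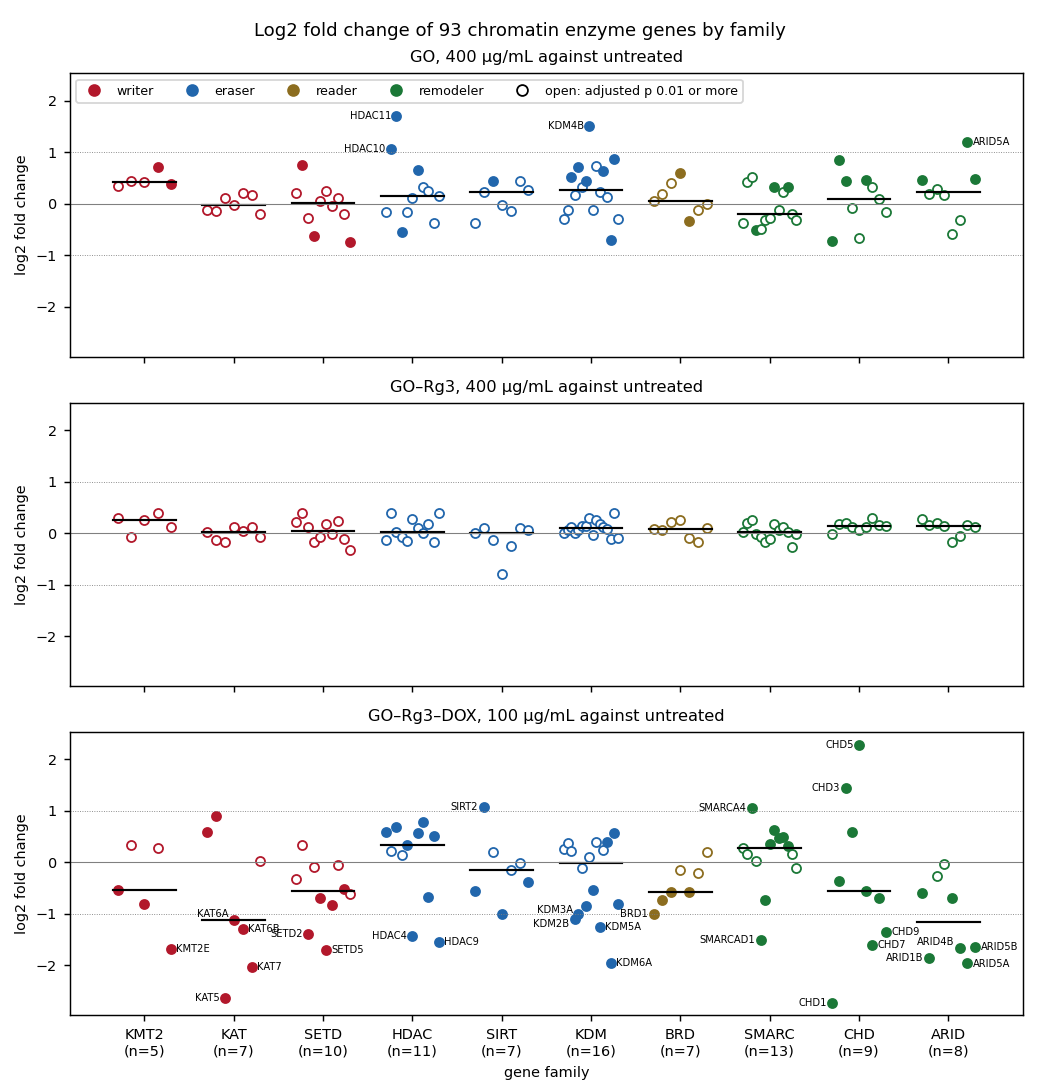
Log2 fold change against untreated cells (y axis) of 93 members by gene family (x axis, with n) in 3 panels, one per treatment. Points are genes coloured by role, filled where the adjusted p was below 0.01, black bars are family medians, dotted lines mark 1 and -1, and symbols name the members past both limits. After GO–Rg3–DOX the KAT median was -1.12 and the ARID median -1.16, while the HDAC median was 0.33 (-0.09 by library totals alone) and the SMARC median 0.28 (-0.13 by library totals alone).

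Of 7 KAT genes, 4 fell after GO–Rg3–DOX, all of them past a log2 fold change of -1, and 2 rose. Of all genes, 30.5% fell, 18.2% past that limit, and 25.5% rose. KAT5 (GRCh37 chromosome 11 from 65479467 to 65487075), the catalytic subunit of the TIP60 complex that acts at DNA breaks, went from 15.2, 14.5 and 13.6 CPM to 2.47, 2.08 and 2.48 CPM, a log2 fold change of -2.62 (SE 0.14, adjusted p = 5.94e-10). KAT7 (HBO1), which acetylates histones at replication origins, went from 50.3, 51.1 and 50.3 CPM to 14.4, 11.0 and 11.7 CPM, a log2 fold change of -2.04 (SE 0.11, adjusted p = 1.17e-09). Both fell far below their untreated range, and in the GO and GO–Rg3 groups neither passed the test. Exons of KAT5 overlap those of RNASEH2C, and exons of KAT7 those of FAM117A, on the opposite strand. This holds for some gene in 44 of 93 members, and the sources used here do not say whether counting used the strand, so reads of such partners cannot be told apart. KAT6A, on chromosome 8, fell by 1.12 and its paralog KAT6B by 1.29 on the log2 scale. KAT2A (GCN5), the SAGA acetyltransferase, instead rose from 80.9, 79.7 and 80.5 CPM to 122.9, 119.3 and 119.7 CPM, a log2 fold change of 0.59 (SE 0.11, adjusted p = 0.000253). KAT2B (PCAF) rose from 7.01, 6.74 and 7.01 CPM to 12.8, 12.5 and 13.3 CPM, by 0.89 (SE 0.15, adjusted p = 6.11e-05). By library totals alone both stayed positive, at 0.17 and 0.48, without passing the test.

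Of 11 HDAC genes, 6 rose and 3 fell on the TMM scale, while by library totals alone 0 rose and 3 fell. Of all 17092 genes, 25.5% rose and 30.5% fell on the TMM scale, and 2149 rose and 7297 fell by library totals alone. HDAC1 was at 271.0, 277.0 and 277.5 CPM in untreated samples and at 422.1, 399.5 and 416.9 CPM after GO–Rg3–DOX, a log2 fold change of 0.59 (SE 0.08, adjusted p = 9.33e-06). HDAC6, the cytoplasmic tubulin deacetylase, rose by 0.79 (SE 0.10, adjusted p = 4e-06), HDAC11 by 0.68, HDAC5 by 0.57, HDAC8 by 0.50 and HDAC3 by 0.33. HDAC3 turned to -0.09 by library totals alone, where HDAC1 (0.17), HDAC6 (0.37) and HDAC11 (0.25) no longer passed. HDAC2, at 0.13 by TMM and -0.29 by library totals, passed under neither. The falls were all in class IIa, whose members shuttle between nucleus and cytoplasm: HDAC9 fell by 1.54, HDAC4 by 1.44 and HDAC7 by 0.67 on the log2 scale. HDAC5, also of class IIa, was among the rises on the TMM scale. On the TMM scale the summed level of the HDAC genes was 784.9 ± 2.30 CPM in untreated samples and 1047 ± 34.99 CPM after GO–Rg3–DOX, and that of the KAT genes 261.4 ± 4.95 and 210.7 ± 5.02 CPM. Neither pair of sums overlapped on that scale. By library totals alone the HDAC sums were 858.7 ± 5.29 and 856.5 ± 58.1 CPM and overlapped, while the KAT sums, 285.9 ± 5.27 and 172.5 ± 11.7 CPM, did not.

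Sirtuins were divided. SIRT2, the tubulin and H4K16 deacetylase, rose from 22.3, 20.8 and 22.9 CPM to 49.1, 45.2 and 44.2 CPM, a log2 fold change of 1.07 (SE 0.13, adjusted p = 3.16e-06). Its exons overlap those of NFKBIB on the opposite strand. SIRT1 fell by 0.56 (SE 0.15, adjusted p = 0.00433) and SIRT7, the nucleolar sirtuin, by 0.38 (adjusted p = 0.00813). SIRT4 also fell, with a log2 fold change of -0.9995 (adjusted p = 0.00611) from under 1 CPM. While 3 of 7 sirtuins were lower by edgeR, 1 was by DESeq2. SIRT6 differed from untreated cells by less than the spread between replicates (-0.0047, adjusted p = 0.985), with a sign that changed among settings.

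Of 16 demethylases, 2 rose and 7 fell (12.5% and 43.8%, beside 25.5% and 30.5% of all genes). KDM6A went from its 52.6 to 55.4 CPM in untreated samples to 12.8, 13.9 and 15.0 CPM, a log2 fold change of -1.96 (SE 0.14, adjusted p = 1.37e-08). KDM6B rose by 0.57 (SE 0.13, adjusted p = 0.00143), but did not pass by library totals alone (0.16, adjusted p = 0.375). The log2 ratio of KDM6A to KDM6B per kb reached -2.04 ± 0.118. KDM5A, a demethylase of H3K4, fell by 1.26, while its paralog KDM5C rose by 0.39, turning to -0.03 by library totals alone. Per kb the log2 ratio of KDM5A to KDM5C was -2.89 ± 0.102 in untreated cells and -4.54 ± 0.037 after GO–Rg3–DOX. KDM5B (0.24, adjusted p = 0.0453) did not pass. KDM2B fell by 1.09, KDM3A by 1.003, KDM4A by 0.84, KDM7A by 0.81 and KDM4C by 0.53. KDM2A, the most abundant demethylase per kb, was at 755.4 to 796.0 CPM after GO–Rg3–DOX and did not pass (0.22, adjusted p = 0.0283). KDM3A and KDM4A had risen after GO and fell here, at 24.1 to 30.4 and 41.2 to 49.5 CPM beside 53.5 to 54.5 and 76.3 to 80.9 CPM in untreated samples.

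Of 15 KMT2 and SETD genes, 8 fell and 0 rose by edgeR, beside 30.5% and 25.5% of all genes. At an unadjusted p below 0.05 or by DESeq2, 0 KMT2 genes rose, and 1 SETD gene rose in either count. SETD5 fell from 239.6, 264.8 and 250.3 CPM to 75.5, 82.7 and 72.5 CPM, a log2 fold change of -1.71 (SE 0.10, adjusted p = 1.23e-09). KMT2E went from 42.9, 46.3 and 45.6 CPM to 14.0, 13.7 and 14.2 CPM, a log2 fold change of -1.68 (SE 0.10, adjusted p = 2.46e-09). SETD2, which trimethylates H3K36 and travels with RNA polymerase, went from 106.5, 114.7 and 109.3 CPM to 43.4, 44.5 and 38.8 CPM, a log2 fold change of -1.38 (SE 0.13, adjusted p = 1.64e-07). None of these groups overlapped. Smaller falls were those of SETD6 (-0.82), KMT2C (-0.81), SETD4 (-0.69), KMT2A (-0.54) and the H4K20 monomethyltransferase SETD8 (-0.52). KMT2D (0.29, adjusted p = 0.118) did not pass and turned to -0.12 by library totals alone and to -0.10 with the GC content offset. SETD5-AS1, counted on its own, had a log2 fold change of -0.37 (adjusted p = 0.031). Its exons overlap those of THUMPD3.

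On the TMM scale, core and ARID subunits of SWI/SNF moved in opposite directions after GO–Rg3–DOX. SMARCA4 (BRG1, GRCh37 chromosome 19 from 11071608 to 11190102), the ATPase, rose from 188.0, 170.2 and 177.5 CPM to 433.3, 354.6 and 331.1 CPM, a log2 fold change of 1.06 (SE 0.15, adjusted p = 1.49e-05). Replicate 1 was the highest, and without it the value was 0.94. The scaffold subunits SMARCC1 (0.63), SMARCC2 (0.47), SMARCD1 (0.49), SMARCD2 (0.32) and SMARCB1 (0.36) rose too on the TMM scale. By library totals alone SMARCA4 (0.63, adjusted p = 0.000608) still passed, SMARCC1 (0.21), SMARCC2 (0.05) and SMARCD1 (0.06) did not, and SMARCD2 (-0.10) and SMARCB1 (-0.07) turned in sign without passing. SMARCD3 (0.17, and -0.25 by library totals) and the alternative ATPase SMARCA2 (0.16, and -0.26 by library totals) did not pass. SMARCE1 did not pass on the TMM scale (-0.11) but fell by library totals alone (-0.52, adjusted p = 0.00834). The log2 ratio of SMARCA2 to SMARCA4 per kb went from -5.94 ± 0.160 to -6.84 ± 0.239. ARID1B (GRCh37 chromosome 6 from 157097154 to 157531913), which takes the same place as ARID1A in the BAF complex, fell from 45.9, 44.8 and 44.3 CPM to 13.1, 11.8 and 12.4 CPM, a log2 fold change of -1.86 (SE 0.10, adjusted p = 6.66e-10). ARID1A fell by 0.60 (SE 0.09, adjusted p = 1.86e-05), after a rise with GO. The log2 ratio of ARID1B to ARID1A per kb went from -1.38 ± 0.123 to -2.63 ± 0.140. Subunits outside the symbol rule included ARID2 (-1.97, adjusted p = 6.97e-09), DPF2 (-1.28), BCL7B (-0.72), SS18 (-0.53) and BCL7A (-0.49), which fell, and BCL7C, which rose (1.05). PBRM1 (0.05), ACTL6A (0.08) and PHF10 (0.13) did not pass.

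**Figure D3:**
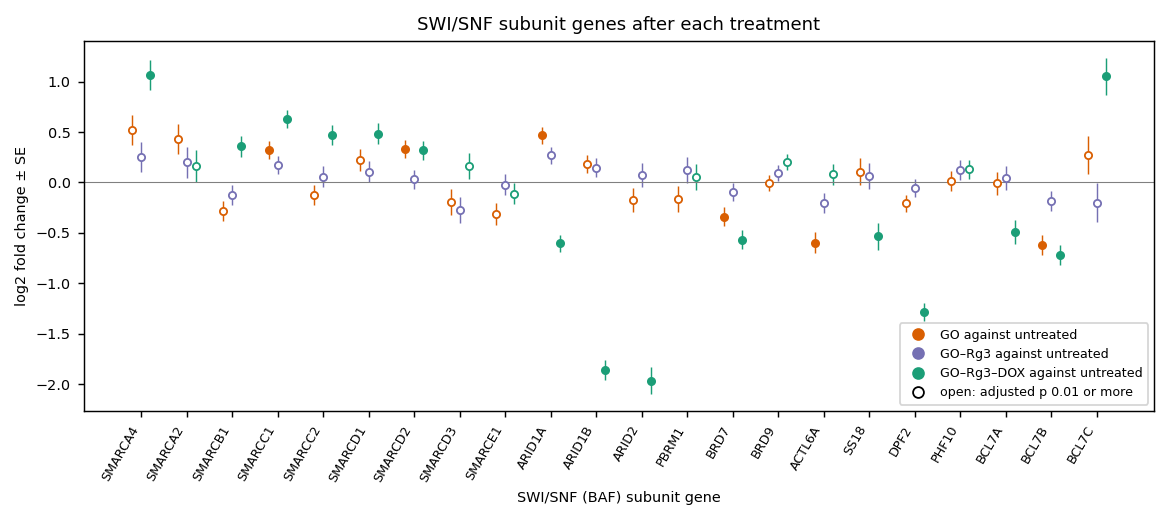
Log2 fold change ± SE (y axis) of 22 SWI/SNF subunit genes (x axis) after GO, GO–Rg3 and GO–Rg3–DOX, each against untreated cells, filled where the adjusted p was below 0.01. After GO–Rg3–DOX, SMARCA4 stood at 1.06 and ARID1B and ARID2 at -1.86 and -1.97.

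Other ARID genes were also lower. None of 8 rose (0 by edgeR, 0 at an unadjusted p below 0.05 and 0 by DESeq2), and 6 fell. By edgeR 25.5% of all genes rose and 30.5% fell. ARID5A, which had risen after GO, went down to 1.48, 1.47 and 1.26 CPM, a log2 fold change of -1.96 (SE 0.24, adjusted p = 2.93e-06). ARID4B, a subunit of the SIN3 corepressor complex, fell by 1.66, ARID5B by 1.65 and ARID4A by 0.68 on the log2 scale. ARID3A had a value of -0.26 (adjusted p = 0.0891) and fell by library totals alone (-0.69, adjusted p = 0.000232). Among the other SMARC genes, SMARCAD1, a helicase of DNA end resection, fell by 1.501 and SMARCAL1, which remodels stalled replication forks, by 0.73. The ISWI ATPases SMARCA1 (0.28) and SMARCA5 (0.02) did not pass, nor did they by library totals alone, where both were below 0 (-0.13 and -0.40).

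The CHD family held both the strongest fall among the members, that of CHD1, and the largest positive log2 fold change, that of CHD5, a gene near the floor. CHD1 went from 72.7, 68.2 and 67.4 CPM to 9.59, 11.5 and 10.5 CPM, a log2 fold change of -2.72 (SE 0.15, adjusted p = 1.29e-09). CHD7 fell by 1.60, CHD9 by 1.36, CHD8 by 0.68, CHD6 by 0.55 and CHD2 by 0.37. The NuRD helicases CHD3 and CHD4 rose on the TMM scale. CHD3 went from 96.0, 100.98 and 97.6 CPM to 314.6, 247.4 and 239.1 CPM, a log2 fold change of 1.44 (SE 0.11, adjusted p = 3.26e-08), and CHD4 from 334.4, 347.5 and 339.8 CPM to 569.4, 486.7 and 478.9 CPM, by 0.59 (SE 0.09, adjusted p = 3.4e-05). By library totals alone CHD3 kept a value of 1.01, and CHD4, at 0.16, no longer passed. CHD5 rose the most, by 2.28 (SE 0.34, adjusted p = 2.84e-05), at the lowest level per kb of any member, from 0.118 to 0.264 CPM in untreated samples and from 0.659 to 1.08 CPM after GO–Rg3–DOX. Its lowest untreated sample held fewer than 10 counts. CHD5 may thus have passed the count filter only through the GO–Rg3–DOX samples, so its rise is not independent of that filter.

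Bromodomain readers were lower or did not pass. BRD2 went from 146.6, 141.3 and 144.6 CPM to 88.2, 87.2 and 86.3 CPM, a log2 fold change of -0.72 (SE 0.08, adjusted p = 8.06e-07). BRD1, a scaffold of KAT6 and KAT7 complexes, fell by 1.002, BRD3 by 0.57 and BRD7 by 0.57 on the log2 scale. Of 7 readers 0 rose by edgeR, beside 25.5% of all genes, with 1 higher at an unadjusted p below 0.05 and 1 by DESeq2.

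After GO–Rg3, 0 members passed the test in either direction by edgeR, and 0 by DESeq2, beside 0.0585% of all genes higher and 0.105% lower (0.0117% and 0.0468% past an absolute log2 fold change of 1). At an unadjusted p below 0.05, 8 members were higher and 3 lower. The log2 fold changes lay between -0.79 (SIRT4, adjusted p = 0.162) and 0.40 (SETD1B, adjusted p = 0.106), with a median of 0.0852 against -0.0011 for all genes. CPM did not overlap for 31 of 93 members (33.3%), beside 25.8% of all genes. SETD1B was at 29.8, 26.6 and 30.8 CPM, above the untreated 19.9 to 24.2 CPM and below the 35.7 to 39.1 CPM of the GO samples.

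GO–Rg3 and GO were given at the same dose and time, and the difference between them was tested directly. Relative to GO, 4 members were higher after GO–Rg3 and 9 lower, beside 7.34% and 6.25% of all genes. The 4 were CHD1 (0.70, SE 0.14, adjusted p = 0.0026), KDM6A (0.58), HDAC2 (0.47) and SETD3 (0.47). HDAC11 was lower by 1.66 (SE 0.16, adjusted p = 5.15e-06), KDM4B by 1.22 (SE 0.17, adjusted p = 0.000173) and ARID5A by 1.05 (SE 0.19, adjusted p = 0.00127) on the log2 scale, the 3 members past a log2 fold change of -1 (3.23%, beside 2.07% of all genes). In the other direction 0 passed it, by edgeR and by DESeq2, and 0 at an unadjusted p below 0.05, beside 0.702% of all genes. The other 6 lower members were CHD2 (-0.68), HDAC10 (-0.67), KDM3A (-0.65), SIRT3 (-0.58), KDM5B (-0.51) and KDM2A (-0.40). The GO samples enter this comparison and the one with untreated cells. Fitted on the 6 samples compared alone, 0 members were higher and 2 lower. Without GO–Rg3 replicate 2 or 3, 0 were higher.

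Falls after GO–Rg3–DOX were more frequent among the longer members. The span on the genome had a median of 55.4 kb for 92 members and 26.5 kb for 16622 tested genes. After GO–Rg3–DOX the 35 members of at least 80 kb had a median log2 fold change of -0.81 with 65.7% lower past the test, beside -0.27 and 38.3% for all genes of that span. The 26 members under 30 kb had a median of 0.22 with 26.9% lower, beside 0.09 and 25.9%. ARID1B (434.8 kb), HDAC9 (915.5 kb) and HDAC4 (353.5 kb) are long members that fell. The direction did not follow span throughout: KAT5 (7.61 kb) and ARID5A (15.9 kb) fell past the doubling, and SMARCA4 (118.5 kb), SMARCC1 (196.8 kb) and KAT2B (114.0 kb) rose. The Spearman correlation of log2 fold change with span was -0.32 over the members and -0.14 over all genes. With G and C content of the transcript it was 0.40 and 0.38.

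**Figure D4:**
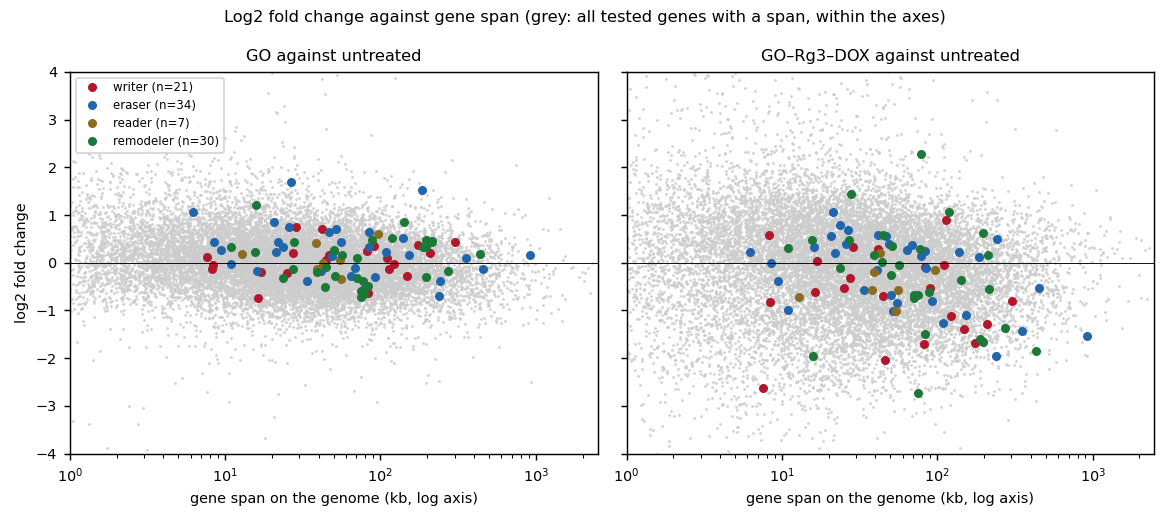
Log2 fold change against untreated cells (y axis) and gene span in kb (x axis, log scale) for GO and GO–Rg3–DOX. Coloured points are 92 members by role and grey points are all tested genes with a span, within the axes. After GO–Rg3–DOX most members of at least 80 kb lie below 0.

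Partners of the members, taken from 6 lists, were counted in the same fit. Their counts stand beside 25.5% of all genes higher and 30.5% lower after GO–Rg3–DOX, and 12.1% and 15.4% after GO. All list values are on the TMM scale, and values by library totals alone were not tabulated for them. By library totals alone the median of all genes after GO–Rg3–DOX moved from -0.056 to -0.47, so rises in the lists are relative to the TMM scale. The lists are short, with 8 to 23 genes tested, and several counts, such as 5 of 20 rises below, are near those shares. Of 20 further Polycomb and methyltransferase genes, 5 rose and 12 fell after GO–Rg3–DOX. Among the falls were the Polycomb genes SUZ12 (-1.32), EED (-1.66) and EZH2 (-0.54), the H3K9 methyltransferases SUV39H1 (-1.73) and SETDB1 (-1.02), and NSD1 (-1.34). DOT1L (0.51), EHMT2 (0.60) and the arginine methyltransferases PRMT1 (0.56) and CARM1 (1.07) rose. After GO 1 rose and 5 fell. Of 18 acetyltransferase genes and partners, 2 rose and 9 fell after GO–Rg3–DOX. EP300 (-1.24) and CREBBP (-0.93), the paired coactivators, fell, as did MEAF6 (-1.30) and BRPF1 (-1.19), which belong to KAT complexes, and TADA3 rose (0.96). After GO 2 rose and 3 fell.

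Of 10 shared subunits of the KMT2 and SETD1 complexes, 1 rose and 4 fell after GO–Rg3–DOX, with WDR82 at -1.87 and RBBP5 at -1.52, and 1 rose and 2 fell after GO, the GO counts again near the shares of all genes. Of 18 genes of HDAC corepressor complexes, 3 rose and 8 fell. MTA1 (0.90) and RBBP7 (0.43) were among the rises, and the platforms SIN3A (-1.83), RCOR1 (-2.04), TBL1XR1 (-1.83), NCOR1 (-0.94) and MBD2 (-1.59) among the falls. After GO 4 rose and 3 fell in that list. Of 23 tested BAF subunits and other remodelers, 4 rose and 11 fell after GO–Rg3–DOX, INO80 (-1.78) and RSF1 (-1.43) among the falls, and 1 rose and 4 fell after GO. Of 8 DNA methylation genes, DNMT1 (0.44) rose and TET1 (-2.06), TET2 (-0.71), TET3 (-0.50) and TDG (-1.04) fell after GO–Rg3–DOX, while after GO DNMT3B rose and DNMT1 (-0.68) and TDG (-0.85) fell. After GO–Rg3, 0 of the 97 genes of the 6 lists passed the test by edgeR, with 15 at an unadjusted p below 0.05 and 1 by DESeq2.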

How the data were processed

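RNA of 12 Huh7 samples was sequenced (4 groups of 3, grouped by their labels). The authors made stranded poly(A) libraries, aligned them to GRCh37 in the NGI-RNAseq pipeline and used featureCounts, and they deposited its raw counts for 63677 genes. The annotation release and the strand setting are not given in the sources used here. The 17092 genes that reached 10 counts in 3 or more samples were scaled by TMM and fitted together with edgeR 4.0.16 in R 4.3.3 (quasi-likelihood test, no replicate block, Benjamini-Hochberg adjustment over all genes). SE is the absolute log2 fold change divided by the square root of F. CPM was computed from these counts, at 27802871 to 38877420 per sample.

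Members and gene lists were chosen with earlier results of these data known. Genes named are, per comparison and role, up to 3 rises and 3 falls (1 each in GO–Rg3 against GO) whose groups did not overlap, called members, the family member with the highest CPM and paralog sets. SETD4, SETD6, SETD8, KMT2B, KMT2C, HDAC5, HDAC7, HDAC8, KDM4A, KDM4C, KDM4D, KDM7A, KDM1A, SIRT3, SIRT4, most SMARC genes, CHD6, CHD8, ARID4A and partner genes, and the further genes of GO–Rg3 against GO, were named to account for counts after their values were seen. Gene positions, span, transcript length and GC content came from GENCODE v44 lifted to GRCh37, and promoters from RefSeq (GRCh38.p14). The fit was tested on simulated counts. Alternatives were RLE scaling, library totals alone, no filter, 10 counts in every sample, DESeq2 1.42.0, the replicate block, a GC content offset (loess, span 0.5, with and without the block), the 6 samples compared, and each sample left out. Tables used Python 3.11.15 and pandas 2.3.3. Some genes that the naming rule or the lists hold are counted but not reported by name here.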

Additional observations from a re-analysis of the deposited data

How the results depend on the processing

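Most results kept direction and side of the threshold. Of the values for single genes, 549 of 645 after GO, 676 of 749 after GO–Rg3–DOX and 78 of 90 in GO–Rg3 against GO did so. By library totals alone, 11 members rose after GO (median 0.0435), 4 rose after GO–Rg3–DOX (2 past a log2 fold change of 1, 35 below -1, median -0.61), the GO–Rg3 median was 0.1117, and in GO–Rg3 against GO 3 were lower (median 0.088), beside 489 of all 17092 genes. After GO–Rg3–DOX, 22 of 93 members then went from above to below 0, among them HDAC2 (-0.29), HDAC3 (-0.0851), KDM2A (-0.19), KDM5B (-0.18), KDM5C (-0.0302), KMT2D (-0.12) and SMARCA2 (-0.26). With the GC content offset, alone or with the replicate block, 2 members passed the fold after GO (medians 0.0375 and 0.0349), 11 fell after GO with the block, and 1 rose after GO–Rg3 with the block. In GO–Rg3 against GO 10 were higher and 1 was lower past the fold under both (medians 0.0312 and 0.0277). After GO the sign turned under them for KAT2B (0.0994 and 0.0976), KAT6A (0.0807 and 0.0853), KDM5C (-0.1115 and -0.1129) and SIRT7 (-0.0881 and -0.088), for ARID3A under the offset alone (-0.001), and after GO–Rg3–DOX for KMT2D (-0.1021 and -0.0932). RLE scaling, DESeq2 and the stricter filter turned KAT6A after GO (0.0021, 0.0027 and 0.0098) and SIRT6 after GO–Rg3–DOX (0.0634, 0.0630 and 0.0287). SIRT6 also turned on the 6 samples compared (0.0374). RLE scaling and DESeq2 gave medians of 0.1191 and 0.1190 after GO–Rg3 and of -0.1275 and -0.1272 after GO–Rg3–DOX. Without a filter on low counts, 2 members passed the fold upwards after GO–Rg3–DOX (median -0.2776) and 7 were higher in GO–Rg3 against GO. On the 6 samples compared, 0 were higher and 2 lower there by edgeR, and the GO–Rg3 median was 0.1615. The causes were not tested.

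Leaving out 1 sample gave after GO 13 to 21 rises (13 without untreated replicate 1), 4 to 6 falls (4 without untreated replicate 1 or 3 or GO replicate 3), 3 to 5 rises past the fold and a median of 0.1301 to 0.1728. After GO–Rg3 it gave 0 calls and a median of 0.0364 to 0.0833. After GO–Rg3–DOX there were 15 to 18 rises, 36 to 42 falls, 3 to 4 and 20 to 22 past the fold, and a median of -0.24 to -0.19. In GO–Rg3 against GO 0 to 6 were higher (2 without GO replicate 3, 0 without GO–Rg3 replicate 2 or 3), 6 to 13 lower, 2 to 3 lower past the fold, with a median of -0.0814 to -0.0465. KAT2B after GO ran from -0.2359 to 0.0237 (above 0 without GO replicate 1), KAT6A after GO from -0.0843 to 0.0494 (0.0168 without untreated replicate 1) and SIRT6 after GO–Rg3–DOX from -0.0814 to 0.106 (0.0561 without untreated replicate 1).

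The labels repeat replicate numbers across groups without saying what they mark. Deviations from group means correlated at 0.0914 on average between samples of one number and at -0.0451 between others, not above 0.1 in every pair of any comparison, so the numbers were not taken to pair the samples, and what else same-numbered samples share is not known. Each sample correlated best with its own number in 6 of 6 samples for GO–Rg3 and untreated cells, 5 of 6 for GO–Rg3 and GO, and 3 of 6 in either other comparison, as a hint from the data and not the design. With the number as a block, 28 members rose and 10 fell after GO, 0 passed after GO–Rg3 by edgeR (median 0.0717), 21 rose and 43 fell after GO–Rg3–DOX, and 6 were higher and 13 lower in GO–Rg3 against GO. SIRT6 after GO–Rg3–DOX was then 0.01. With 3 samples a group, members under 1 CPM (CHD5, SIRT4, KMT2B, KDM4D) have the widest errors.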
